A study of Mus musculus with 3 samples.

Results

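The granzymes and cytotoxic granule genes described here are 10 genes given by name and matched by their GENCODE M21 symbols: Gzma, Gzmb, Gzmc, Gzmk, Gzmm, Prf1, Nkg7, Ctsw, Serpinb9 and Srgn. All 10 were found among the 55536 annotated genes of the gene tables; they were taken by name and not by a threshold on any value. Per the labels, the cells were primary CD4 T cells of the effector memory kind from 1 adult male mouse of strain B6.SJL-Ptprca Pepcb/BoyJ, aged 5 months. This C57BL/6-derived line carries the CD45.1 allele of the pan-leukocyte surface protein CD45. The polyA-selected RNA of 1 biosample gave 3 libraries, which the labels number as technical replicates 1, 2 and 3. There was 1 group and no treatment, so every difference below is between libraries of the same cells, and no p-value or SD measures variation between mice. The sources used here name no sort gate for them.

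Cytotoxic lymphocytes kill by releasing secretory granules towards a target cell. Perforin opens the target's membrane, and granzymes, a family of serine proteases, pass through and cleave proteins inside it. Serglycin, a proteoglycan with long sulphated sugar chains, packs granzymes and perforin in the granule, and serine protease inhibitors in the cytosol guard the killer cell against granzyme B that leaks out. These genes are best known from CD8 T cells and natural killer (NK) cells, and a part of effector CD4 T cells expresses them as well.

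The CD4 T cell part of the label was set against marker genes, and the effector memory part was not tested. All 7 genes of the CD4 alpha-beta T cell list were detected, where detected means a level of 1 or more in the length- and depth-scaled unit TPM in each library. Cd4 itself stood at 268.67, 541.40 and 523.43 TPM in libraries 1, 2 and 3. Expected counts on annotated genes came to 17474991, 15303615 and 16882311, and 11694 genes were detected. Library 1 stood apart from the other libraries across the transcriptome, so results are given with and without it.

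The granule genes of these cells spanned mean levels from 0.807 to 1597 TPM: the message of the granule's packing protein was among the most abundant, and those of the proteases were scarce. Srgn, which encodes serglycin, stood at 1597 ± 431 TPM (SD, n = 3), above 99.5% of detected protein-coding genes. Nkg7, a membrane protein of cytotoxic granules, followed at 662 ± 236 TPM (SD, n = 3). Gzmk and Gzmb, the leading granzymes, averaged 12.1 ± 2.71 and 11.9 ± 0.875 TPM (SD, n = 3), and Gzma and Gzmc stayed under 1 TPM in every library. In all, 8 of the 10 genes were detected. Srgn and Nkg7 together held 89.0% ± 1.93 (SD, n = 3) of the summed TPM of the 10 genes, and the 5 granzymes held 1.10% ± 0.0266.

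**Figure D1:**
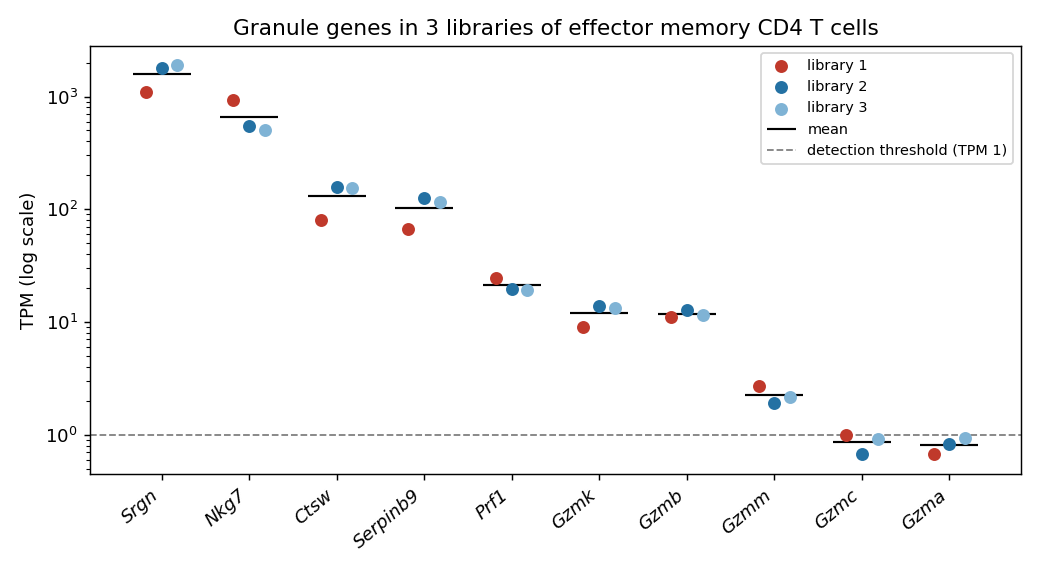
TPM of the 10 genes in each library, on a log axis, with 1 point per library and a bar at the mean. Genes are ordered by mean TPM, from Srgn at 1597 to Gzma at 0.807, and the dashed line marks the detection threshold of 1 TPM.

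The granzymes are told apart by sequence, and their coding regions around the active-site serine show how far these messages differ. In chymotrypsin-like proteases a histidine, an aspartate and a serine form the catalytic triad. The lines below give 57 coding bases of the leading transcript of each granzyme, spliced from exons 4 and 5 of 5, with the codon of the active-site serine in capitals. They come from the GENCODE M21 transcripts on GRCm38, 5′ to 3′ in the sense of the gene. Gzmk and Gzmb are shown as the most abundant granzymes, Gzmc as the nearest relative of Gzmb among these genes, and Gzma and Gzmm for contrast.
Gzmk: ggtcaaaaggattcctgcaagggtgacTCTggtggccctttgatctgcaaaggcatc
Gzmb: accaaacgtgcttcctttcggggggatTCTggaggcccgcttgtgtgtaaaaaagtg
Gzmc: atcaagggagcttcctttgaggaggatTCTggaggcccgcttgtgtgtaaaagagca
Gzmm: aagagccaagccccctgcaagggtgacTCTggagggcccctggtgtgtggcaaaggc
Gzma: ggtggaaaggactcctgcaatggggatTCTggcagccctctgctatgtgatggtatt

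All 5 used the same serine codon, at codon 213 of Gzmk, 203 of Gzmb, 204 of Gzmc, 210 of Gzmm and 211 of Gzma, counted from the start codon. Over the aligned coding sequence Gzmb and Gzmc were identical at 75.9% of bases, the highest value between any 2 of these granzymes. Gzma and Gzmk, neighbours in the genome, were identical at 58.5%, and Gzma and Gzmm at 53.8%, the lowest value. Reads were short, so stretches shared between genes bear on the counts. Words of 50 bases, the read length that the deposited effective lengths imply, were compared with all other annotated transcripts. Gzma, Gzmb, Gzmk and Gzmm shared no such word with another gene. Gzmc shared 35 of its 845 words, or 4.14%, with Gzmd, Gzme or Gzmg. The longest piece shared with Gzme, 68 bases at chr14:56232740-56232807 on the minus strand of GRCm38, is shown because reads from it cannot be assigned to 1 gene.
Gzmc and Gzme: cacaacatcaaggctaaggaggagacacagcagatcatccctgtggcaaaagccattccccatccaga

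Gzmk (ENSMUSG00000042385.14, chromosome 13, 113171608 to 113225908, minus strand) encodes granzyme K, a trypsin-like protease. Its level was 8.96, 13.86 and 13.43 TPM in libraries 1, 2 and 3, from 96, 121 and 138 expected counts. Library 1 was the lowest and the other libraries lay close together. Esm1, on the opposite strand, lies wholly within an intron of the longer Gzmk transcript and shares no exonic base with it. The sources used here do not say whether counting used strand. Esm1 stood at 3.18, 4.24 and 5.19 TPM, and its exonic reads do not lie on annotated Gzmk exons.

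Gzmb (ENSMUSG00000015437.5, chromosome 14, 56258838 to 56262260, minus strand) encodes granzyme B, which cleaves after aspartate and activates caspases. Its values were 11.14, 12.84 and 11.63 TPM, from 166, 158 and 167 expected counts. This was the narrowest spread of the 10 genes, 7.37% of the mean. Gzmk and Gzmb overlapped in range and did not differ beyond their spread, although in libraries 2 and 3 Gzmk was the higher. Gzmm (ENSMUSG00000054206.2, chromosome 10, 79689020 to 79695261, plus strand), whose protease cleaves after methionine or leucine, was detected at 2.70, 1.90 and 2.18 TPM. That value rests on 31, 16 and 28 expected counts.

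Gzmc (ENSMUSG00000079186.3, chromosome 14, 56231441 to 56234656, minus strand), a relative of granzyme B, was listed at 0.99, 0.67 and 0.91 TPM, from 9, 5 and 8 expected counts. Gzma (ENSMUSG00000023132.8, chromosome 13, 113093825 to 113100981, minus strand), which encodes the trypsin-like granzyme A of NK and CD8 T cells, was listed at 0.67, 0.82 and 0.93 TPM from 6, 6 and 8 expected counts. Both lay above the limit of 3 counts that a count of 0 allows, and their ranges overlapped. For a single library, 3 counts correspond to 0.337 TPM of Gzma in library 1, 0.408 in library 2 and 0.349 in library 3, for counting error only.

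Gzmk took 43.0% ± 5.48 of the summed TPM of all genes named Gzm, Gzmb 42.7% ± 2.78, Gzmm 8.28% ± 2.46, Gzmc 3.13% ± 0.910 and Gzma 2.89% ± 0.269 (SD, n = 3 for each). The order of these leading granzymes was not fixed. Gzmb led in library 1 and Gzmk in libraries 2 and 3. Gzmb also led in the mean shares without library 2 (42.8% against 41.4%) and without library 3 (44.1% against 41.3%), and in expected counts not divided by length (51.1% against 36.8%). The summed granzyme TPM was 24.46, 30.09 and 29.08.

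Gzmb and Gzmc sit in the granzyme and mast cell protease cluster of chromosome 14, which holds 16 genes named Gzm, Mcpt, Cma or Ctsg, 15 of them protein-coding. Gzmb and Gzmc were the only genes of the cluster with a count in any library. The other 14 were listed at 0 in all 3 libraries, which allows from 0.143 up to 0.495 TPM depending on gene length and library. These included the relatives Gzmd, Gzme, Gzmf, Gzmg and Gzmn, the mast cell chymases Cma1 and Mcpt4, the basophil protease Mcpt8 and Ctsg, the cathepsin G gene of neutrophils. The posterior SD of the deposited Gzmc estimates was 0.40 counts in library 1 and 0 in the others. Whether any read came from the sequence that Gzmc shares with its relatives was not tested. On chromosome 13 the neighbours Gzma and Gzmk differed in level in every library, with 0.67 against 8.96 TPM in library 1, 0.82 against 13.86 in library 2 and 0.93 against 13.43 in library 3.

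**Figure D2:**
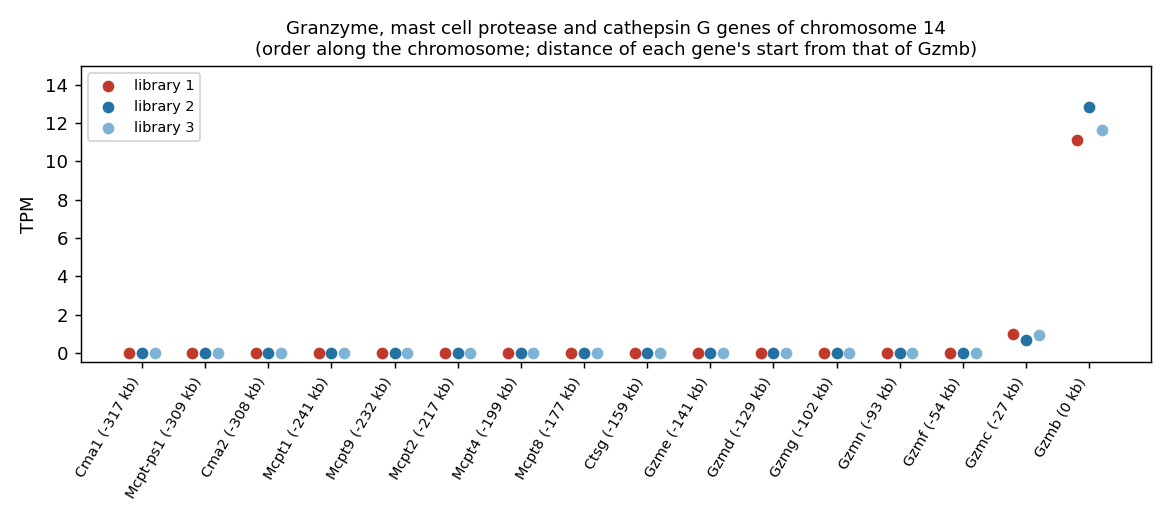
TPM in each library of the 16 genes of the chromosome 14 cluster, evenly spaced in their order along the chromosome, with 1 point per library. Labels give the distance of each gene's lowest coordinate from that of Gzmb in kilobases. Gzmb at 11.14 to 12.84 TPM stands alone, Gzmc lies just under 1 TPM, and the other 14 genes are at 0.

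Sequence just upstream of the RefSeq start site is shown for Gzmb, Gzmk, Gzma and Nkg7. It sets the 2 leading granzymes beside the scarcest and beside an abundant granule gene. Each line gives the 120 bases before the RefSeq start on GRCm38.p6, in the sense of the gene, with matches to 4 motifs in capitals. The motifs, searched on both strands, were GGTGTGA for T-box factors, TGTGGT for RUNX factors, TGANTCA for AP-1 and TTCNNNGAA for STAT factors.
Gzmb, chr14:56262335-56262454, minus strand: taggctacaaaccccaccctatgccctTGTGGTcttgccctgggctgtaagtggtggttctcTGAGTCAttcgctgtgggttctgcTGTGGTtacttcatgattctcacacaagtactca
Gzmk, chr13:113180966-113181085, minus strand: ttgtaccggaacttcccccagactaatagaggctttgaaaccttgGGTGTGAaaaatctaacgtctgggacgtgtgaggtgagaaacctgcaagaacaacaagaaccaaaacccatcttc
Gzma, chr13:113100982-113101101, minus strand: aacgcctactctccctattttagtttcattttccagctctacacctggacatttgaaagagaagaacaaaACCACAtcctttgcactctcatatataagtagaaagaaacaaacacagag
Nkg7, chr7:43437018-43437137, plus strand: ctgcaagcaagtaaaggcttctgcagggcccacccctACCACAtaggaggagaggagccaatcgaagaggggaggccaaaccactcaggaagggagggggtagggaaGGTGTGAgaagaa

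In these stretches Gzmb held 2 RUNX matches and 1 AP-1 match, Gzmk a T-box match, Gzma a RUNX match on the other strand, and Nkg7 a T-box and a RUNX match. RefSeq windows from 250 bases before to 50 bases after a start were found for 9 of the 10 genes, with 11 windows in all. RUNX letters occurred in 8 of these 11 windows and in 16.8% of 32851 windows of the genome, T-box letters in 3 and in 3.98%, STAT letters in 3 and in 8.30%, and AP-1 letters in 1 and in 7.81%. Such short matches describe the letters only and show no binding. Of the factors whose families these motifs belong to, Tbx21 stood at 238.1, 194.7 and 167.1 TPM, Runx3 at 17.31, 45.53 and 44.30, and Stat4 at 289.0, 367.1 and 370.2, while Eomes, the other T-box factor of cytotoxic cells, reached only 3.51, 6.09 and 5.46.

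Prf1 (ENSMUSG00000037202.6, chromosome 10, 61297833 to 61304680, plus strand), which encodes perforin, stood at 24.37, 19.54 and 19.34 TPM, or 21.1 ± 2.85 (SD, n = 3), near the middle of detected protein-coding genes at the 41.4th percentile. Its counts were 622, 410 and 461. In every library perforin was above each single granzyme, and the summed granzyme TPM was at least as high as that of Prf1. The ratio of Prf1 to the summed granzymes was 0.996 in library 1 and 0.649 and 0.665 in the others.

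Srgn (ENSMUSG00000020077.14, chromosome 10, 62493833 to 62527451, minus strand) stood at 1102.09, 1799.90 and 1889.89 TPM, from 10808, 14582 and 17894 expected counts. Library 1 was the lowest and libraries 2 and 3 lay above it without overlap. Serglycin is made by many leukocytes, cytotoxic or not, and its level was 295%, 236% and 255% of that of Cd3e, the T cell receptor's CD3 epsilon chain. Cd3e was lower in library 1, and the other CD3 chain genes Cd3g (880.73, 585.06 and 610.71 TPM) and Cd3d (481.58, 344.99 and 378.04 TPM) were higher there. Relative to Cd3e, Cd3g, Cd3d and Ptprc together, Srgn was lower in library 1, with a log2 ratio of -0.64. Nkg7 (ENSMUSG00000004612.9, chromosome 7, 43437073 to 43438249, plus strand), which takes part in granule release, went the other way with 934.45, 544.35 and 508.50 TPM from 6491, 2980 and 3346 counts. Relative to Cd3e it was 250% in library 1 and 71.4% and 68.5% in libraries 2 and 3.

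Ctsw (ENSMUSG00000024910.5, chromosome 19, 5465043 to 5468507, minus strand) encodes cathepsin W, a cysteine protease of CD8 T and NK cells. It stood at 80.67, 157.92 and 153.05 TPM from 1060, 1660 and 1924 counts, lowest in library 1. As a share of Cd3e it was 21.6%, 20.7% and 20.6%, with Cd3e at 374.12, 761.90 and 742.07 TPM. Relative to Cd3e, Cd3g, Cd3d and Ptprc together, Ctsw was lower in library 1, with a log2 ratio of -0.84. Fibp, on the opposite strand, overlaps Ctsw by 9 exonic bases, so reads there are uncertain, with 30.39, 49.12 and 54.60 TPM. Serpinb9 (ENSMUSG00000045827.10, chromosome 13, 33003250 to 33017957, plus strand), the inhibitor of granzyme B, stood at 66.89, 125.49 and 116.16 TPM from 2407, 3730 and 4028 estimated counts. Its 50-base words were shared with another gene, Serpinb9b, at 13 of 3348 positions. Serpinb9 exceeded its target Gzmb in all 3 libraries.

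In order of mean TPM, Srgn exceeded Nkg7 2.41-fold, Nkg7 exceeded Ctsw 5.07-fold, Serpinb9 exceeded Prf1 4.88-fold, Prf1 exceeded Gzmk 1.74-fold, Gzmb exceeded Gzmm 5.25-fold and Gzmm exceeded Gzmc 2.64-fold, each without overlap between the libraries. Ctsw and Serpinb9, Gzmk and Gzmb, and Gzmc and Gzma overlapped. Without library 1 only Gzmc and Gzma did.

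Pearson's chi-square test of homogeneity then compared the 3 libraries for each of the 13177 genes with at least 30 counts, and a gene passed at a Benjamini-Hochberg adjusted p under 0.05. It sets differences against counting error alone, and 75.8% of all tested genes passed. Of the 10 genes 8 were tested and 6 of these passed, or 75%, which is near that background. Nkg7 and Prf1 were highest in library 1, where 32.3% of all tested genes passed in that direction. Srgn, Ctsw, Serpinb9 and Gzmk were lowest in library 1, against 39.6% of all genes.

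Nkg7 was 1.78-fold higher in library 1 than the geometric mean of the others (log2 ratio 0.83, computed on TPM + 0.1), with a chi-square of 1343. Prf1 was 1.25-fold higher (log2 ratio 0.32, adjusted p = 2.1e-06 by the chi-square test). In the other direction, libraries 2 and 3 exceeded library 1 by 1.93-fold for Ctsw (log2 ratio -0.95), 1.80-fold for Serpinb9 (log2 ratio -0.85), 1.67-fold for Srgn (log2 ratio -0.74) and 1.52-fold for Gzmk (log2 ratio -0.60, adjusted p = 0.0081 by the chi-square test). The median log2 ratio of all detected genes was -0.06. These folds and ratios are on TPM, while the chi-square test used counts. Gzmb (log2 ratio -0.13, adjusted p = 0.78) and Gzmm (log2 ratio 0.39, adjusted p = 0.23) did not pass the chi-square test. Gzmc and Gzma had too few counts to be tested.

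The median chi-square was 3.12 times the median under counting error alone between libraries 2 and 3. Over all 3 libraries it was 19.9 times that median. After division of each chi-square by that factor, 21.6% of all tested genes passed, and 4 of the 8 tested here did. These were Srgn (adjusted p = 8.0e-22 by the scaled chi-square test), Nkg7 (6.0e-14), Serpinb9 (4.0e-06) and Ctsw (0.0026). They also had the most counts of the 8 genes over all libraries, 4644 to 43284, against 75 to 1493 for the rest. The same factor served genes of every depth, so these calls do not tell depth and size of difference apart. Prf1 and Gzmk no longer passed, and Gzmk also missed the threshold with DESeq2 size factors (adjusted p = 0.093) and with the M4 counts described next (adjusted p = 0.085). Between libraries 2 and 3 alone, 16.7% of 12468 tested genes passed, and 1 of the 8 did, Srgn (adjusted p = 1.1e-19 by the chi-square test). For Srgn that test compared 14582 counts of 15303615 in library 2 with 17894 of 16882311 in library 3. Its TPM, which the test did not use, was 1799.90 against 1889.89. The other 7 showed no difference between libraries 2 and 3 that passed that test.

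**Figure D3:**
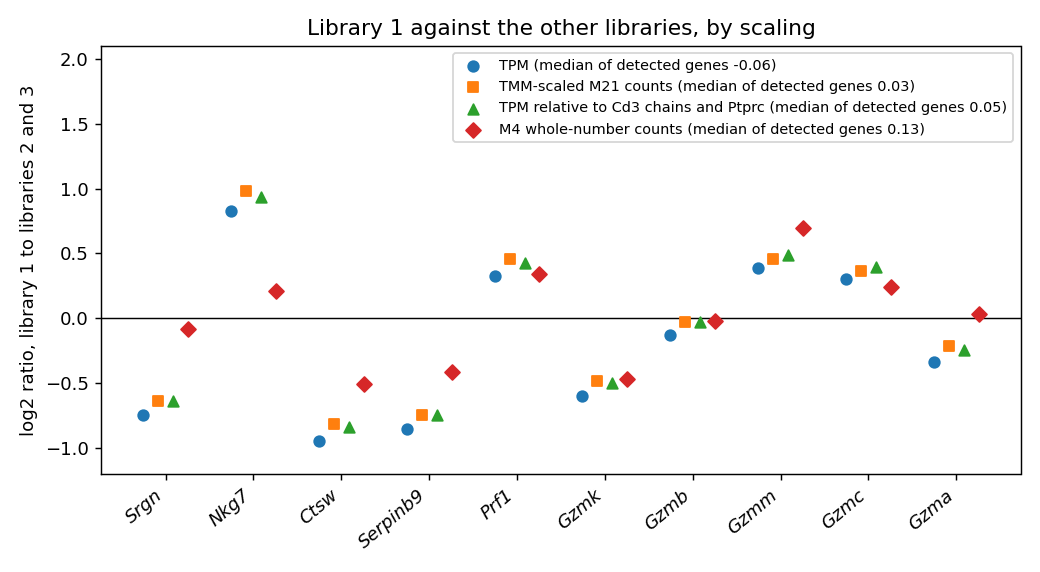
log2 ratio of library 1 to the geometric mean of libraries 2 and 3 for each gene, under 4 scalings given by different symbols, with 0 meaning equal levels. Nkg7, Prf1, Gzmm and Gzmc lie above 0 and Srgn, Ctsw, Serpinb9 and Gzmk below 0 under all 4, and Gzma changes side with the M4 counts.

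A separate deposited table of whole-number counts on the older GENCODE M4 annotation gave smaller differences for the most abundant genes. There Srgn had 873, 915 and 953 counts, with a log2 ratio of -0.08 (adjusted p = 0.44 by the chi-square test), and Nkg7 had 1071, 925 and 949, with a log2 ratio of 0.21 (adjusted p = 0.0013). The M4 counts of Srgn were 8.08%, 6.27% and 5.33% of the expected counts on M21, those of Nkg7 16.5%, 31.0% and 28.4%, and those of Gzmb 54.2%, 56.3% and 57.5%. Across all genes the M4 share fell as reads per base rose, from a median of 57.1%, 56.9% and 56.0% at up to 0.2 reads per base to 36.9%, 36.6% and 36.9% between 1 and 5 and 10.7%, 10.1% and 9.08% between 5 and 20. Srgn had 11.2, 15.2 and 18.6 reads per base, all between 5 and 20. Nkg7 had 9.34 in library 1, in that same range, and 4.47 and 4.89 in the others, in the range below it. The sources used here do not say how the M4 counts were made, and the part of this in the library ratios was not tested. Among the scarcer genes the log2 ratio on TPM was set against that on M4 counts. It went from -0.60 to -0.47 for Gzmk, from 0.32 to 0.34 for Prf1 and from -0.13 to -0.02 for Gzmb. It went from 0.39 to 0.69 for Gzmm, from 0.31 to 0.24 for Gzmc and from -0.34 to 0.03 for Gzma. Ctsw went from -0.95 to -0.50 and Serpinb9 from -0.85 to -0.41. These steps change the measure as well as the annotation. M21 counts scaled by TMM library sizes gave -0.48 for Gzmk, 0.45 for Prf1, -0.03 for Gzmb, 0.46 for Gzmm and 0.36 for Gzmc. They gave -0.21 for Gzma, -0.81 for Ctsw, -0.75 for Serpinb9, -0.64 for Srgn and 0.98 for Nkg7. The median over all detected genes was 0.13 with the M4 counts and 0.03 with the TMM-scaled M21 counts.

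The transcript tables split each gene's level over its annotated transcripts, as a percent of the gene. The 10 genes have 28 transcripts, 20 of them protein-coding, and in 8 genes 1 transcript held more than 50% in every library. Srgn-201 took 96.8% ± 0.0907 and the leading Serpinb9 transcript took 99.1% ± 1.56 (SD, n = 3). Prf1-202 took 90.15%, 88.09% and 75.68%, and Gzmk-201 took 93.42%, 79.83% and 95.28%. Gzmk-203, annotated for nonsense-mediated decay, had 12.28% in library 2 and 0 in the others. Gzmb-201, Gzmc-201 and Gzma-201 took 100% in every library, and Gzmb and Gzmc have no other annotated transcript.

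Nkg7 was divided most. Nkg7-202, annotated as a retained-intron transcript with no protein, was given 46.28%, 51.81% and 46.01%. The full coding transcript, of 4 exons, was given 42.74%, 32.26% and 36.90%, and Nkg7-203, which lacks the exon of 135 bases at chr7:43437775-43437909, was given 10.98%, 15.93% and 17.09%. Only 33 of the 526 bases of Nkg7-202 lie in no other Nkg7 transcript, so its share rests on little sequence of its own. Those bases, at chr7:43437504-43437536, and the junction particular to Nkg7-203, with its downstream exon in capitals, are the sequences that separate the transcripts (GENCODE M21, GRCm38, plus strand).
Nkg7-202 own bases: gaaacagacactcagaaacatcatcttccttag
Nkg7-203 junction: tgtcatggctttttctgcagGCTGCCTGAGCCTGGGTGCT

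Summed over coding transcripts, Nkg7 stood at 501.98, 262.29 and 274.53 TPM, so library 1 was also the highest without Nkg7-202. Ctsw-201 took 71.80%, 59.58% and 64.29% of Ctsw, and 4 retained-intron transcripts together took 33.6% ± 4.74 (SD, n = 3). Gzmm was least settled: Gzmm-201 took 59.43%, 31.95% and 100%, and the non-coding Gzmm-202 took 40.57%, 68.05% and 0%, on 31, 16 and 28 counts for the gene.

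**Figure D4:**
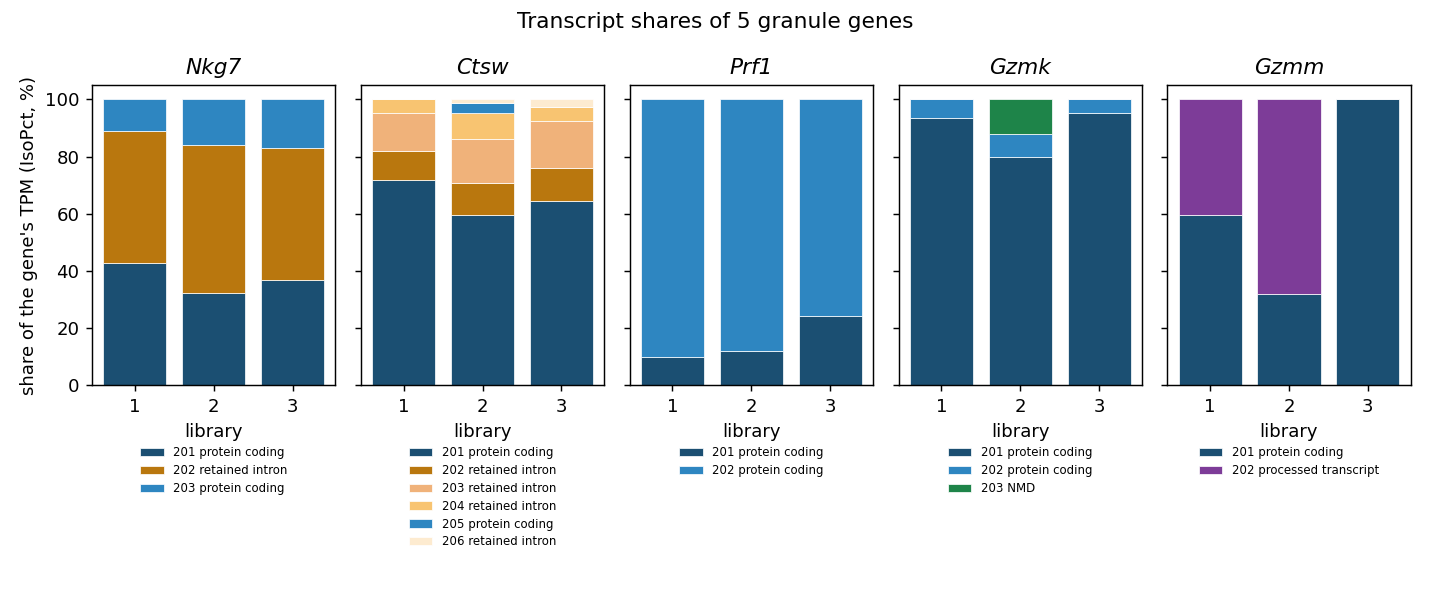
Share of the gene's level given to its transcripts for Nkg7, Ctsw, Prf1, Gzmk and Gzmm, in percent, as stacked bars with 1 bar per library. Prf1 and Gzmk are mostly 1 transcript in every library, and Nkg7, Ctsw and Gzmm are divided.

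Detection in the rest of the granule pathway varied by list, from 0 of the 5 granzyme relatives to all 16 genes of transport, docking and fusion. Over the whole annotation, 11694 of 55536 genes were detected. As the background for the counts that follow, 78.3% of 11407 tested genes among all detected ones passed the chi-square test, 35.9% with library 1 highest and 38.6% with library 1 lowest. Granzymes are made as inactive precursors, and Ctsc, the dipeptidyl peptidase cathepsin C that trims them, stood at 134.1, 47.95 and 48.53 TPM, more than 2-fold higher in library 1. Cst7, which encodes cystatin F, an inhibitor of cathepsin C, stood at 69.91, 95.86 and 95.63 TPM, and the serpin Serpinb6b at 37.83, 55.04 and 56.68. Of the 15 genes for activation and its control 8 were detected and all 8 passed the chi-square test, 4 with library 1 highest and 4 with it lowest. The undetected genes were Ctsh and 6 relatives of Serpinb9 (Serpinb9b, Serpinb9c, Serpinb9d, Serpinb9e, Serpinb9f and Serpinb9g).

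Proteins of granule biogenesis sort cargo to lysosome-related organelles, and 12 of 13 were detected. M6pr, the cation-dependent mannose 6-phosphate receptor, led at 230.3, 173.0 and 162.8 TPM, followed by the lysosomal membrane protein Lamp1 at 191.5, 172.6 and 163.5, and Ap3b1, a subunit of the AP-3 sorting complex, at 38.33, 58.59 and 53.66. Cd63, a tetraspanin of granule membranes, was not detected. Library 1 was more than 2-fold lower for Igf2r, the large mannose 6-phosphate receptor (5.09, 29.82 and 24.53 TPM), and for the AP-3 subunit Ap3d1 (18.48, 59.77 and 59.89 TPM). Of 12 tested, 11 passed, against 78.3% of all detected genes, 2 with library 1 highest (35.9% of all) and 9 with it lowest (38.6% of all). Of the 3 genes that build the mannose 6-phosphate tag, all were detected and 2 passed, with Gnptg at 100.7, 94.20 and 93.76 TPM, Gnptab at 36.64, 54.62 and 49.40 and Nagpa at 25.16, 25.39 and 20.96.

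All 16 genes of granule transport, docking and fusion were detected. Coro1a, a regulator of cortical actin, led with 829.4, 1394 and 1316 TPM. Vamp2, a vesicle SNARE, stood at 93.73, 245.2 and 226.3, and Kif5b, a kinesin heavy chain, at 231.2, 152.8 and 142.8. Vamp2 and the actin regulator Dock8 (62.52, 157.8 and 165.9 TPM) were more than 2-fold lower in library 1. Of the 16, 13 passed, 4 with library 1 highest and 8 with it lowest. In the synthesis of serglycin's sugar chains 10 of 11 genes were detected, led by Xylt2, a xylosyltransferase that starts the chain, at 46.48, 54.24 and 41.10 TPM, B3gat3 at 30.15, 38.48 and 36.68, and Chpf at 20.70, 31.69 and 27.07. Chst11, a chondroitin sulfotransferase, was not detected (0.05, 0.39 and 0.21 TPM), and Chsy1, which extends chondroitin chains, was more than 2-fold lower in library 1 (7.21, 17.29 and 14.65 TPM). Of the 11 tested, 9 passed, 3 with library 1 highest and 5 with it lowest.

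All 16 transcription factors linked to granzyme and perforin genes were detected, and 14 passed, against 78.3% of all detected genes, 2 with library 1 highest (35.9% of all) and 11 with it lowest (38.6% of all). Tcf7, a factor of naive and memory cells, led at 647.4, 1206 and 1167 TPM. Klf2, a factor of T cell quiescence and migration, stood at 400.5, 869.9 and 805.2 TPM and Bhlhe40 at 708.6, 592.3 and 556.4. Klf2, Runx3 and Notch1 (3.20, 38.74 and 36.38 TPM) were more than 2-fold lower in library 1. Death ligands, the granule-independent arm of killing, were led by Fasl, the ligand of the death receptor Fas, at 479.3, 197.3 and 177.9 TPM. It was more than 2-fold higher in library 1, and Tnf was more than 2-fold lower there (42.19, 86.62 and 85.81 TPM). Fas stood at 63.73, 58.82 and 61.14 TPM, and 4 of the 6 genes of this list passed, 2 in each direction. The median level was 24.1 TPM over all detected genes. Over the 10 genes described here it was 16.6 TPM, but this includes the undetected Gzmc and Gzma, so the medians are not alike. Of the 8 detected genes, Srgn, Nkg7, Ctsw and Serpinb9 averaged above 24.1 TPM, and Prf1, Gzmk, Gzmb and Gzmm below it.

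**Figure D5:**
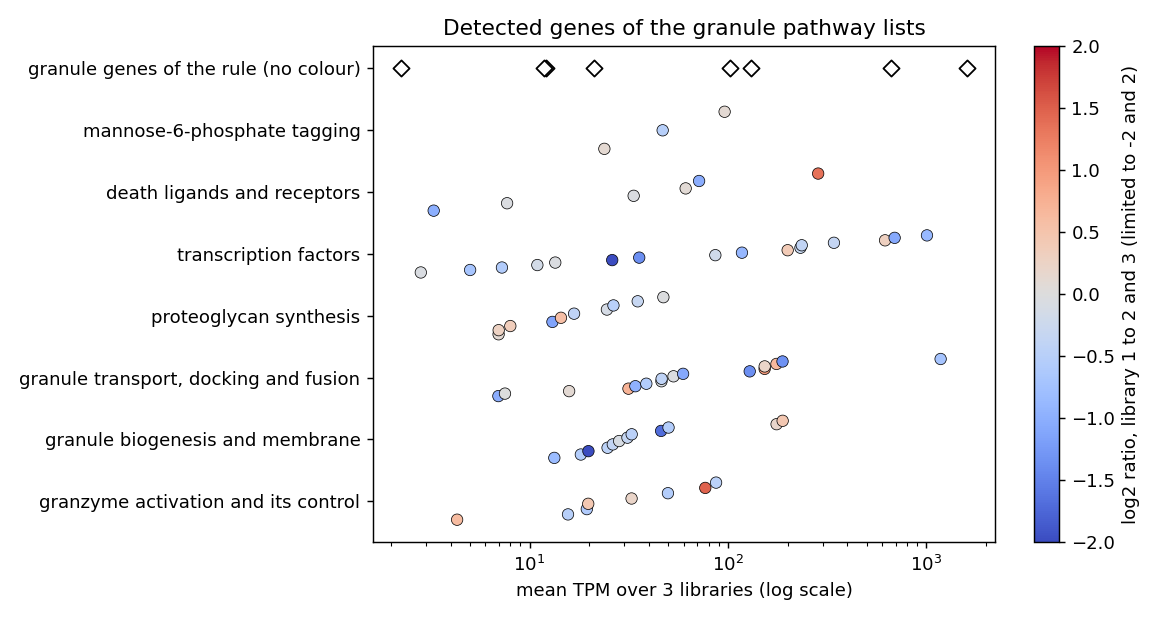
Mean TPM of each detected gene in 7 granule pathway lists, on a log axis, with 1 point per gene coloured by how library 1 compares with libraries 2 and 3 (log2 ratio). The granzyme relatives are not drawn, since none was detected. Over all members, detected or not, the median of the 7 lists ran from 4.32 TPM for granzyme activation and its control to 102 TPM for the transcription factors. No point lies below 1 TPM, because only detected genes are drawn.

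Granzyme and perforin genes are also expressed by other cells that a sort could let through, and a bulk measurement cannot tell fewer expressing cells from less RNA per cell. CD8 T cell RNA was low, with Cd8a at 0, 0.08 and 0.05 TPM and Cd8b1 at 5.65, 8.10 and 10.79. Of 10 NK and NKT markers 2 were detected, Klrk1 at 71.67, 62.89 and 66.18 TPM, a receptor that activated T cells also carry, and Klrb1c at 9.27, 9.03 and 7.74, and the summed TPM of the list ran from 74.07 to 83.77. Ncr1, the NK-defining receptor gene, was at 0, 0 and 0.07 TPM, and Klra4 and Klra8 had no count. No gamma-delta T cell marker of 5 was detected, with a summed TPM of 0.49 to 2.09. Of 8 mast cell and basophil markers only Kit was detected, 6 had no count, and the sum ran from 1.2 to 1.46 TPM. All 6 neutrophil and early myeloid markers had no count. Bst2 and Tcf4 were the detected genes of the plasmacytoid dendritic list of 4, which summed to 63.69 to 68.41 TPM. Most of that sum was Bst2, at 61.27, 56.16 and 58.71 TPM. Tcf4 was at 6.82, 6.86 and 5.53 TPM and Siglech at 0.04, 0.11 and 0.57. Of the monocyte list of 4 only Cd68 was detected, with sums of 5.53 to 7.94 TPM, and none of 4 B cell markers was, with sums of 0.91 to 2.75. The part of these cells in the levels of Gzmb, Gzmk, Prf1 and Nkg7 was not tested.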

How the data were processed

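PolyA RNA-seq of 1 biosample, in 3 libraries, was analysed from the deposited tables on mm10 with GENCODE M21, per the file headers. The authors deposited expected counts, which may be fractional, with their posterior SD, and TPM and FPKM values scaled within each library. Transcript tables hold each transcript's share of its gene in percent, per the file headers. Whole-number counts on GENCODE M4 were deposited without a header, and 22195 of 22457 M4 genes matched M21 by gene ID. Aligner, quantifier and use of strand: not given in the sources used here.

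Expected counts were rounded to whole numbers. Rows without an annotated gene were left out of totals. Genes with at least 30 counts were tested for homogeneity over libraries with Pearson's chi-square test (scipy 1.17.1, Python 3.11.15) and Benjamini-Hochberg adjustment; no quasi-likelihood contrast exists with 1 group. Replicates are technical, so p-values and SDs measure spread between libraries only, and the 3-count limits cover counting error only. Detection needed at least 1 TPM per library, and log2 ratios used a pseudocount of 0.1. Alternatives used TMM sizes (edgeR 4.0.16), median-of-ratios size factors (DESeq2 1.42.0, R 4.3.3), other thresholds, FPKM, M4 counts and libraries left out in turn. The test was checked on data simulated with counting error only, so that check does not cover the excess spread of these libraries. Symbols and coordinates came from GENCODE M21, and promoter windows from RefSeq GRCm38.p6. All 10 members are named, and, of each pathway list, the 3 highest, the undetected and those with library 1 at least 2-fold above or below each of the other libraries, along with detected and defining markers. Other genes were named after their values were seen (Eomes, Tbx21, Stat4, Esm1, Fibp and the remaining mannose 6-phosphate genes). The members and lists were chosen with earlier results of these data known. Member proteins were not analysed here.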

Additional observations from a re-analysis of the deposited data

How the results depend on the processing

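The count of 8 detected genes moved to 10 at a threshold of 0.5 TPM and to 7 at 5 TPM, and stayed 8 with a mean of at least 1, with FPKM and with any library left out. Of the 6 genes that passed the chi-square test, 4 did after scaling by overdispersion, 5 with DESeq2 size factors (Gzmk lost, adjusted p = 0.093), 6 with TMM sizes or a minimum of 10 counts, and 4 with M4 counts (Srgn and Gzmk lost, adjusted p = 0.44 and 0.085). With a library left out the count ran from 1 to 6, and the 1 was without library 1. Among all tested genes 75.8% passed in the main test, 21.6% after scaling and 16.7% without library 1. That share is not given here for the remaining settings, so their counts cannot be read against a background. Between libraries 2 and 3 the count of 1 became 0 with the M4 counts, and by the same chi-square test 0 of 8 had an unadjusted p below 0.05 there. No result reversed its direction among called genes. The ratio of Gzma, which was not tested, moved from -0.34 on TPM to -0.21 with TMM-scaled M21 counts and 0.03 with M4 counts. Whether Gzmb or Gzmk led the granzymes changed without division by length (Gzmb 51.1%) and without library 2 or 3. FPKM values were lower throughout, as with Srgn at 958. No paired analysis was possible because the samples form 1 group. Depth limited Gzma, Gzmc and Gzmm, at 20 to 75 counts over all libraries.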
